A study of Mus musculus with 2 samples.

Results

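The cells described here are group 3 innate lymphoid cells (ILC3s) of the mouse small intestine in which Ptges or Cryaa transcripts were counted and in which those of the genes that usually sort gut ILC3s into subsets were undetected or, for MHC class II, few. Members were chosen by their measured UMIs. A cell belonged when it had no transcript of Cd3e, Cd3d, Cd3g, Ncr1, Ccr6, Cd4 or Ret, at most 2 unique molecular identifiers (UMIs, each marking 1 captured mRNA molecule) of H2-Aa, H2-Ab1 and H2-Eb1 together, and at least 2 UMIs of Ptges and Cryaa together. The first 6 conditions form the gate, and the last splits it. Members numbered 2445 of 20041 kept cells, 1107 of 9251 in the IL-23 library and 1338 of 10790 in the unstimulated library. They are set against the 3763 cells of the same gate with no UMI of Ptges or Cryaa, called zero cells here and gate at 0 in the plots, of which 1640 were in the IL-23 library and 2123 in the unstimulated library.

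Both libraries came from Il23r-eGFP mice, in which a green fluorescent protein knocked into the IL-23 receptor gene marks cells that express it. Live fluorescent leukocytes were sorted from small intestine without Peyer's patches. The IL-23 group received recombinant mouse IL-23 for 2 hours, and the other group is labelled unstimulated. The labels say nothing of age, of how many animals were used or of how the unstimulated cells were held, and each group is 1 droplet library, so no difference has a replicate check and none was tested.

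ILC3s are tissue lymphocytes without antigen receptors that answer IL-23 through STAT3 with IL-22 and IL-17, cytokines that act on the gut epithelium. In mice, 1 branch carries the natural cytotoxicity receptor encoded by Ncr1 and leans to a type 1 programme, while another, the lymphoid tissue inducer-like branch, carries Ccr6. Ptges encodes microsomal prostaglandin E synthase 1, which converts the product of the cyclooxygenases into prostaglandin E2. Cryaa encodes alpha A-crystallin, a small heat shock protein best known as a chaperone of the eye lens. Of the other genes proposed as markers, Palld encodes the actin bundling protein palladin, Cd81 a tetraspanin of the cell surface, and Cebpd the transcription factor C/EBP delta.

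On GRCm38, Ptges lies on chromosome 2 at 30889471 to 30929863 (minus strand) and Cryaa on chromosome 17 at 31677807 to 31681733 (plus strand). Their promoters are shown because these 2 genes define the cells. Each run holds 250 bases before and 50 bases after the RefSeq start on GRCm38.p6, at chr2:30903248-30903547 (minus strand) and chr17:31677681-31677980 (plus strand), and capitals mark a motif match.
Ptges: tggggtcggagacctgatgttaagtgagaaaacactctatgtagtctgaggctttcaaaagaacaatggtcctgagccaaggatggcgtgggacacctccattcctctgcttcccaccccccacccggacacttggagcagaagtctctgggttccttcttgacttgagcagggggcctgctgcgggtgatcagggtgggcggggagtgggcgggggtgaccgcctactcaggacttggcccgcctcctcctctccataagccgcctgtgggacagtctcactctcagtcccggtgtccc
Cryaa: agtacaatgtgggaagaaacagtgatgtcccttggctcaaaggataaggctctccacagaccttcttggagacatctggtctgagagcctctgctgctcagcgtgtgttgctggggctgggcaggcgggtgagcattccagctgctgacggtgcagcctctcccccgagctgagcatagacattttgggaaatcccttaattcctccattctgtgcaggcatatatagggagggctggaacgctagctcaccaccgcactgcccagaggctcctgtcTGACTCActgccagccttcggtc
Searched on both strands were the STAT motif TTCNNNGAA, the AP-1 motif TGANTCA, the heat shock element GAANNTTC, the C/EBP motif TTGCNNAA and the ROR motif AGGTCA. The Cryaa window held 1 match, to AP-1, beginning 27 bases after the start, a motif present in 7.81% of 32851 promoters of the same length. The Ptges window held none of these motifs. Matches are letters in a window, and nothing about binding was measured here.

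Most members were chosen through Cryaa rather than Ptges, so the pair of names overstates Ptges. In the IL-23 library 96.3% of members had a Cryaa UMI and 34.1% had a Ptges UMI, and in the unstimulated library 96.9% and 28.0% did. Members with Cryaa alone numbered 729 and 963 in the IL-23 and unstimulated libraries, those with both genes 337 and 334, and those with Ptges alone 41 and 41. The median member held 3 Cryaa UMIs in both libraries, with highest values of 16 and 15. Members just inside the threshold, at 2 UMIs of the pair, had Cryaa at 296 CPM (UMIs of the gene per 1000000 UMIs of the summed cells) in the IL-23 library and 381 CPM in the unstimulated library. Cells just outside it, at 1 UMI, had 147 and 189 CPM. These levels follow from the UMIs by which the cells were sorted and are given as a description.

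**Figure D1:**
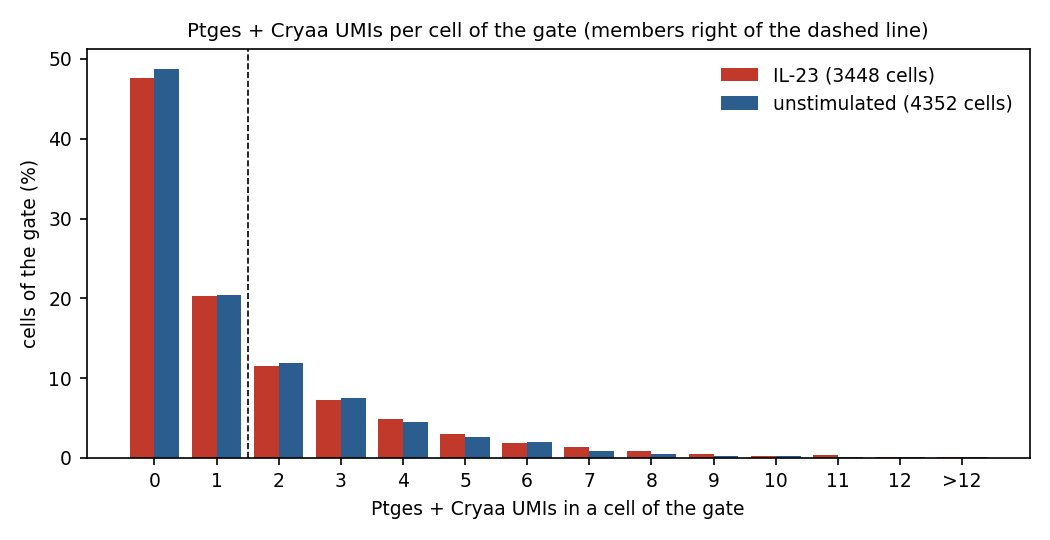
Share of the gate's cells (vertical axis, percent) by their UMIs of Ptges and Cryaa together (horizontal axis), for the IL-23 library (left bar of each pair) and the unstimulated library (right bar). The shares decline steadily with no gap at the dashed line, and 701 IL-23 cells and 891 unstimulated cells sit just outside it at 1 UMI.

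Within the gate, a Ptges UMI was more frequent in cells with a Cryaa UMI than in cells without one. A Ptges UMI was found in 20.2% of IL-23 cells with a Cryaa UMI (95% exact binomial interval 18.3 to 22.2%), against 7.97% (6.75 to 9.32%) of IL-23 cells without one. In the unstimulated library the shares were 15.9% (14.4 to 17.5%) and 5.73% (4.804 to 6.77%). When every cell was thinned to 2000 UMIs, they were 11.01% against 5.18% in the IL-23 library and 10.02% against 4.36% in the unstimulated library. The direction was thus the same at equal depth, and these intervals, like all those given here, cover counting error only.

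The members' share of the gate was close in both libraries. It was 32.1% (30.5 to 33.7%) in the IL-23 library and 30.7% (29.4 to 32.1%) in the unstimulated library, and at 2000 UMIs a cell it was 13.1% (11.9 to 14.3%) and 14.6% (13.5 to 15.7%), with 226 and 306 shallower cells left out. The order of the libraries therefore turned with depth, so no order is read from it. Members had a median of 5376 UMIs in the IL-23 library and 4398 in the unstimulated library, against 5949.5 and 4901 in zero cells. Their median was thus lower, but few members were shallow. Cells under 2000 UMIs were 9 of 1107 IL-23 members and 27 of 1338 unstimulated members. Among zero cells they were 176 of 1640 and 237 of 2123. Of 25 barcodes found in both libraries, 3 IL-23 and 2 unstimulated members carried one.

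All 14 ILC3 markers searched had UMIs in members of both libraries, as they did in zero cells. Their summed level was 33341 and 13247 CPM in IL-23 and unstimulated members against 31324 and 9298 CPM in zero cells. Il22 belongs to this list, at 28202 and 7723 CPM in members against 25869 and 3337 CPM in zero cells. Without Il22 the remaining sum was lower in members than in zero cells in both libraries. Il23r, which encodes the IL-23 receptor chain tagged in these mice, stood at 173 CPM in IL-23 and 139 CPM in unstimulated members. Cd8a, Cd8b1, Cd5, Eomes, Ms4a1, Adgre1, Fcgr1, Col1a1 and Sox10, which mark other lineages, were at 0 in members of both libraries. T cell receptor constant transcripts were present all the same, with Trbc1 at 178 and 215 CPM in IL-23 and unstimulated members against 283 and 374 CPM in zero cells. Of the T cell markers, 10 of 16 had UMIs in IL-23 members and 8 in unstimulated members, and their sum was 354 and 452 CPM against 516 and 732 CPM in zero cells. Of the natural killer and ILC1 markers, 8 and 7 of 12 had UMIs in members, at sums of 338 and 334 CPM against 614 and 589 CPM. Of the macrophage and dendritic cell markers, 6 and 8 of 14 did, at 166 and 161 CPM against 198 and 169 CPM. Every one of these lists was lower in members than in zero cells by its sum. The stromal, endothelial and glial list had UMIs for 4 and 3 of 13 markers, at 75.3 and 68.8 CPM against 113 and 116 CPM. The ILC2 list had them for 9 and 7 of 13, at 66.9 and 91.2 CPM against 112 and 170 CPM. The B and plasma cell list had them for 7 and 8 of 11, at 16.5 and 26.5 CPM against 214 and 1843 CPM. Of the zero cells' immunoglobulin UMIs, however, 98.4% lay in 1 IL-23 cell and 98.9% in 2 unstimulated cells. The contrast for this list is therefore not read as a difference between the groups. The 2 lowest lists were those of epithelium, with UMIs for 6 and 6 of 14 markers and sums of 13.9 and 6.86 CPM, and of granulocytes and mast cells, with UMIs for 2 and 1 of 14 and sums of 3.40 and 1.87 CPM. The part of these other lineages in the results was not tested.

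Cells with at least 2 UMIs of the pair were not confined to the gate, which held 29.7% of all such IL-23 cells and 32.2% of all such unstimulated cells. Among cells outside it, the share with at least 2 was 69.6% and 65.8% of Ccr6 cells in the IL-23 and unstimulated libraries, 63.6% and 68.4% of Cd4 cells, and 62.1% and 60.4% of cells with over 2 MHC class II UMIs. It was 49.8% and 43.3% of Ret cells, 19.7% and 20.2% of Ncr1 cells, and 11.8% and 9.65% of cells with a CD3 chain. The last group, T cells, is taken as the guide to free RNA, although nothing here shows that T cells lack either gene. T cells had medians of 7059.5 and 6096 UMIs, above those of every other group except Ncr1 cells in the IL-23 library.

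Outside the gate, Cryaa and Ptges were both highest in Ccr6 and Cd4 cells and lowest in Ncr1 cells and T cells. Cryaa stood at 397 CPM (382 to 412) in IL-23 Ccr6 cells and 419 CPM (403 to 436) in unstimulated ones, at 98.5 and 129 CPM in Ncr1 cells and at 63.3 and 58.1 CPM in T cells. Ptges stood at 99.2 and 93.7 CPM in Ccr6 cells, 10.9 and 8.13 CPM in Ncr1 cells and 11.3 and 11.5 CPM in T cells. Ccr6 cells and Cd4 cells overlapped in their intervals for both genes in both libraries, while Ncr1 cells and T cells overlapped for Ptges but not for Cryaa. The members' own levels, 537 and 630 CPM of Cryaa and 106 and 103 CPM of Ptges, were set by the rule and are not ranked with these.

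**Figure D2:**
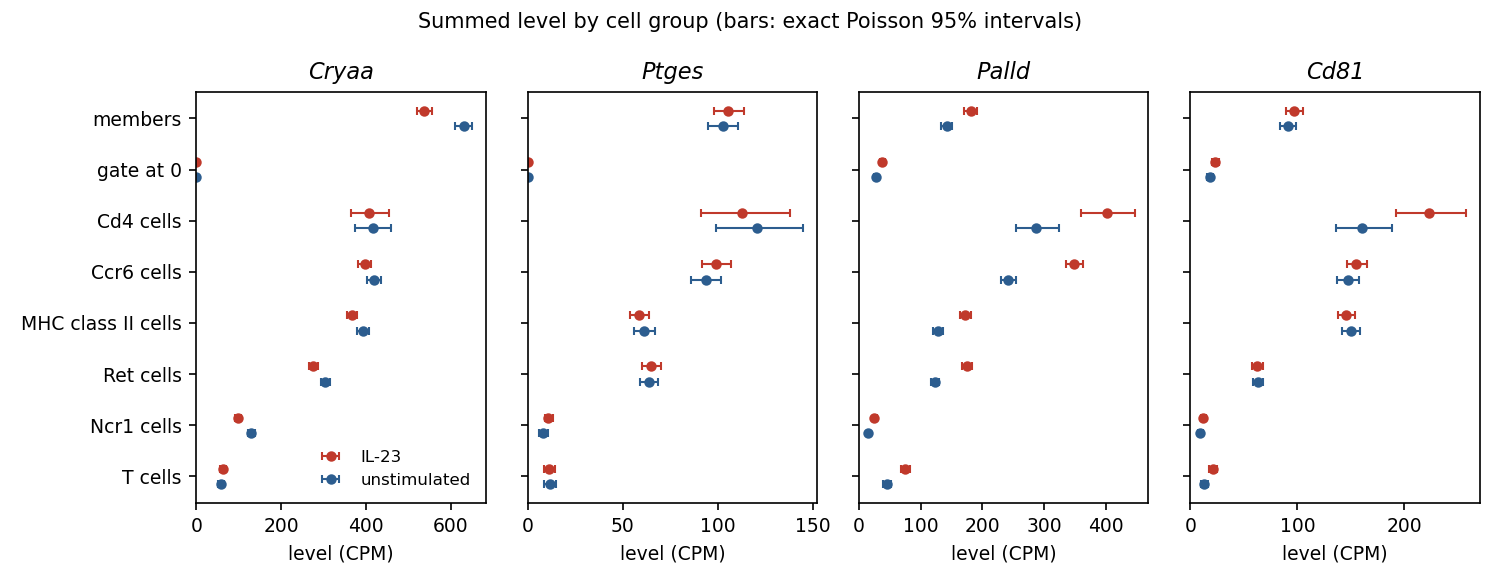
Level (horizontal axis, CPM) of Cryaa, Ptges, Palld and Cd81 in each cell group (rows), for the IL-23 library (upper point of each pair) and the unstimulated library (lower point), with exact Poisson 95% intervals. Cd4 and Ccr6 cells are high and Ncr1 cells low in all 4 panels, and the members' Cryaa and Ptges levels are fixed by how they were chosen.

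Against zero cells, members held more transcripts of Palld, Cd81 and a set of genes known from lymphoid tissue inducer-like cells, and fewer of cytotoxic and type 1 genes. All genes of the cells that the rule split are described here without a test. Measured genes were those reaching 10 CPM in either group and 20 UMIs over both, and 1.5-fold was taken as a size worth counting. In the IL-23 library 322 of 6873 measured genes were at least 1.5-fold higher in members (4.68%) and 536 lower (7.8%). In the unstimulated library 342 of 7055 were higher (4.85%) and 497 lower (7.04%), and the median log2 ratio of all measured genes was -0.03 in each. Among 6702 genes measured in both libraries, 196 were higher in both, which is 65.6% of the 299 higher in the IL-23 library and 65.3% of the 300 higher in the unstimulated library. Those lower in both numbered 302, or 62.8% of 481 and 69.4% of 435.

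Among the proposed markers, 2 stood well apart and 1 did not. Palld was at 181 CPM (171 to 192) in members and 37.9 CPM (34.1 to 42.1) in zero cells of the IL-23 library, and at 142 CPM (133 to 152) and 27.8 CPM (24.7 to 31.3) in the unstimulated library. That is 4.77-fold higher (95% counting interval 4.24 to 5.39) and 5.11-fold higher (4.46 to 5.86). Cd81 was at 96.9 CPM in IL-23 members against 23.2 CPM in zero cells, and at 91.1 CPM in unstimulated members against 18.1 CPM, or 4.18-fold (3.58 to 4.90) and 5.04-fold (4.26 to 5.98) higher. A Palld UMI was found in 32.0% of IL-23 members against 8.60% of zero cells and in 27.5% of unstimulated members against 6.41%, and at 2000 UMIs a cell in 20.9% against 5.12% and 19.0% against 4.24%. For Cebpd the levels were 237 CPM in IL-23 members and 177 CPM in zero cells, and 64.9 and 38.9 CPM in the unstimulated library, so the log2 ratio was 0.42 and 0.74. The unstimulated value came to 0.50, under 1.5-fold, when zero cells were weighted to the members' depth. Cryaa, Palld, Cd81 and Cebpd each overlap a gene on the opposite strand (AC090881.2, 4930512H18Rik, R74862 and Spidr), and each partner is counted as a gene of its own. The strand setting of the counting is not given, and whether reads of these partners entered the counts was not tested.

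Bmp2, a secreted bone morphogenetic protein, had the highest log2 ratio in the unstimulated library among the genes named for higher levels. Its level was 49.8 CPM in IL-23 members against 9.61 CPM in zero cells, and 54.6 CPM in unstimulated members against 9.43 CPM, which is 5.18-fold (4.09 to 6.62) and 5.78-fold (4.60 to 7.33) higher. Pdcd1, which encodes the inhibitory receptor PD-1, was at 62.4 against 14.8 CPM in the IL-23 library and 94.2 against 17.0 CPM in the unstimulated library. Tgm2, a transglutaminase that crosslinks proteins, was at 133 against 32.8 CPM and 148 against 33.0 CPM in the same order. The members' level exceeded that of zero cells in both libraries for each of these 3, with intervals that did not touch. Outside the gate, Ccr6, Cd4 and MHC class II cells were above members for all 3 in both libraries. In IL-23 and unstimulated Ccr6 cells, Bmp2 was at 77.0 and 80.1 CPM, Pdcd1 at 131 and 186 CPM and Tgm2 at 245 and 251 CPM. Ret and Ncr1 cells were below members for all 3, and T cells for Bmp2 and Tgm2 but not Pdcd1. Vegfa, the vascular growth factor, was at 95.1 CPM in IL-23 members against 23.3 CPM and 117 CPM in unstimulated members against 38.9 CPM. The membrane chemokine Cx3cl1 was at 99.4 against 31.3 CPM and 161 against 56.8 CPM. Cd83, a surface protein of activated leukocytes, was at 155 against 62.1 CPM in the IL-23 library and 320 against 120 CPM in the unstimulated library. The remaining genes named for higher levels were Cdc14a (a phosphatase), Rasl11a and Rnd1 (small GTPases), Capn3 (a calpain protease), Apobec1 (a cytidine deaminase that edits RNA) and Bend4, with log2 ratios of 1.11 to 1.87 in the IL-23 library and 1.62 to 1.88 in the unstimulated library. For Apobec1 the IL-23 value of 1.26 became 0.37 without cells that carried a T cell receptor constant transcript. Most cells of the gate, and most members, carried one and were left out there.

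**Figure D3:**
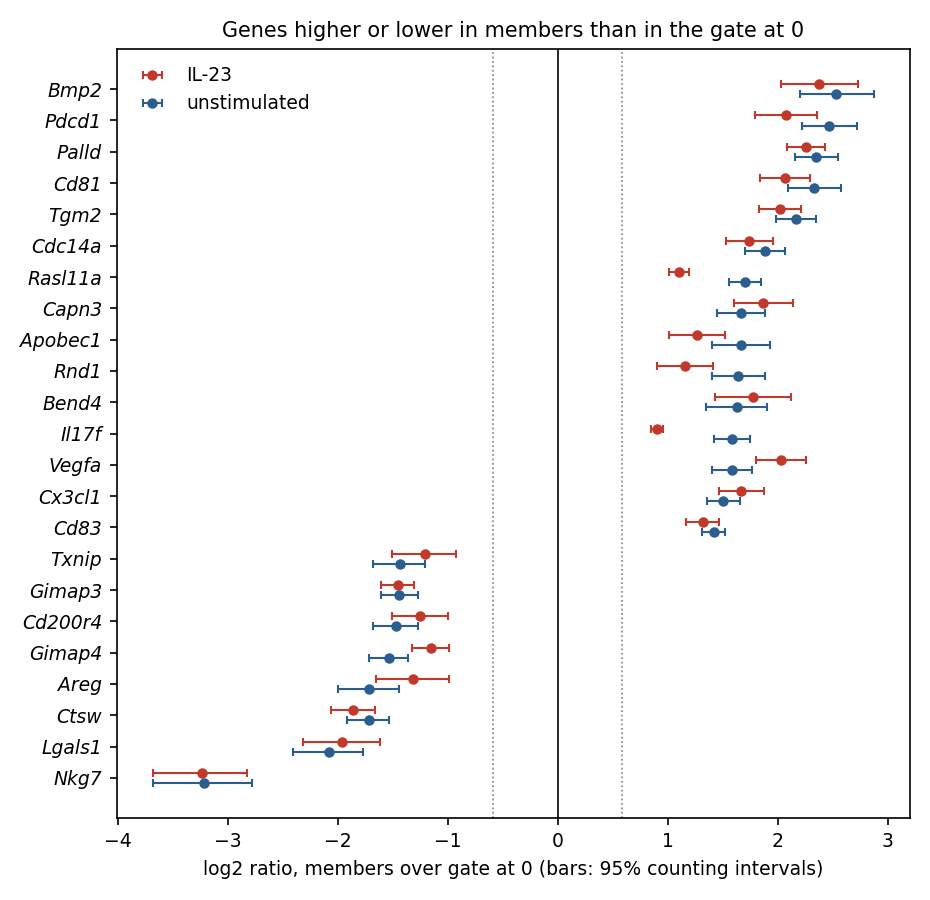
Log2 ratio of the level in members over zero cells (horizontal axis) for the genes named by the rule (rows), in the IL-23 library (upper point) and the unstimulated library (lower point), with 95% counting intervals; dotted lines mark 1.5-fold. Palld, Cd81, Bmp2, Pdcd1 and Tgm2 lie above 2 in both libraries and Nkg7 lies near -3.2, while Igha and Jchain, whose transcripts came from 3 cells, are left out.

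Genes of cytotoxic and type 1 lymphocytes were lower in members. Nkg7, a protein of cytotoxic granules, was at 7.88 CPM (5.87 to 10.4) in IL-23 members against 74.2 CPM (68.8 to 79.9) in zero cells, and at 7.02 CPM (5.12 to 9.39) against 65.1 CPM (60.2 to 70.2) in the unstimulated library. It was 9.41 and 9.27 times lower, and Nkg7 UMIs were found in 2.62% of IL-23 members against 20.1% of zero cells and in 2.32% of unstimulated members against 16.3%. Ctsw, a cathepsin of cytotoxic lymphocytes, was at 37.1 against 134 CPM in the IL-23 library and 42.1 against 138 CPM in the unstimulated library. Lgals1, which encodes galectin-1, was at 12.7 against 49.2 CPM and 14.97 against 63.2 CPM. Areg, the tissue repair factor amphiregulin, was at 15.1 against 37.6 CPM and 20.0 against 65.6 CPM. Gimap3 and Gimap4, GTPases of lymphocyte survival, Cd200r4, an activating relative of the CD200 receptor, and Txnip, an inhibitor of thioredoxin, had log2 ratios from -1.45 to -1.15 in the IL-23 library and -1.53 to -1.43 in the unstimulated library. Txnip in the IL-23 library came to -0.47 without cells that carried a T cell receptor constant transcript. Igha and Jchain were also named as lower, but 98.4% and 98.9% of the zero cells' immunoglobulin UMIs lay in 1 IL-23 cell and 2 unstimulated cells. Without those cells their log2 ratios were -0.54 and -0.02 in the IL-23 library and -0.55 and -0.29 in the unstimulated library.

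The levels of these genes moved in steps with the UMIs of the pair, rather than only at the threshold. Over cells with 0, 1, 2 and at least 3 UMIs, Palld was at 37.9, 91.2, 127 and 211 CPM in the IL-23 library and 27.8, 64.7, 119 and 156 CPM in the unstimulated library. Nkg7 ran the other way, at 74.2, 32.6, 8.76 and 7.40 CPM in the IL-23 library and 65.1, 31.3, 11.6 and 4.25 CPM in the unstimulated library. Cells with 1 UMI lay between zero cells and members for both genes. Ctsw was at 134, 85.8, 52.99 and 28.4 CPM in the IL-23 library and 138, 80.9, 59.6 and 31.5 CPM in the unstimulated library, lower at each step.

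**Figure D4:**
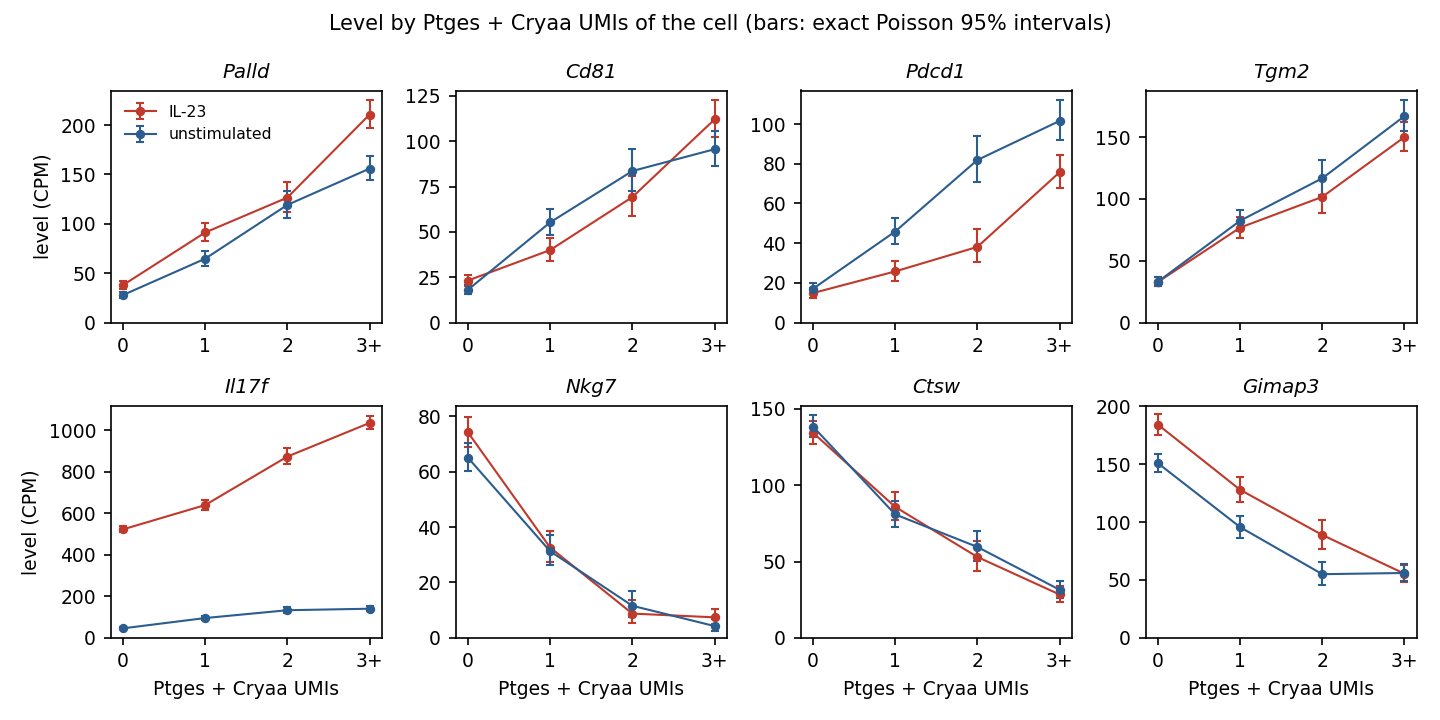
Level (vertical axis, CPM) of 8 genes in cells of the gate with 0, 1, 2 or at least 3 UMIs of Ptges and Cryaa (horizontal axis), for the IL-23 and unstimulated libraries, with exact Poisson 95% intervals. Palld, Cd81, Pdcd1, Tgm2 and Il17f climb from left to right and Nkg7 and Ctsw descend in both libraries, while Gimap3 descends to 55.4 CPM in IL-23 cells and levels off at 56.1 CPM in unstimulated cells.

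For the 4 genes below, members with a Ptges UMI differed from those with Cryaa alone in the direction that members differed from zero cells. The 2 kinds of member were not compared over all genes. Palld was at 221 CPM (202 to 241) in IL-23 members with Ptges against 160 CPM (148 to 173) in those with Cryaa alone, and at 178 CPM (158 to 199) against 129 CPM (119 to 139) in the unstimulated library. Cd81 was at 130 against 79.5 CPM and 134 against 74.96 CPM in the same order. Il17a, which encodes the cytokine IL-17A, was at 623 CPM (591 to 657) against 354 CPM (337 to 373) and 67.1 CPM (55.5 to 80.4) against 37.5 CPM (32.1 to 43.5). Areg was at 2.72 CPM in IL-23 members with Ptges against 21.6 CPM with Cryaa alone, and at 0.573 CPM against 27.2 CPM in the unstimulated library. The intervals of the 2 kinds of member did not touch in either library for these 4 genes. They rest on 378 and 375 members with Ptges, whose Cryaa level was 420 CPM against 598 CPM with Cryaa alone in the IL-23 library and 542 against 663 CPM in the unstimulated library.

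Counted by list, the genes of the Ccr6 lymphoid tissue inducer-like programme stood higher in members, against a background of 4.68% and 4.85% of all measured genes. Of 9 measured members of that list of 13, 8 were higher and none lower in each library, namely Nrp1, Cxcr5, Il17a, Il17f, Tnfsf11, Lta, Cd83 and Cntn1. Its median log2 ratio was 1.16 in the IL-23 library and 1.42 in the unstimulated library. Cxcr5, the receptor for the follicle chemokine CXCL13, was at 38.2 CPM in IL-23 members against 8.97 CPM and 20.9 CPM in unstimulated members against 6.09 CPM. Tnfsf11, which encodes RANKL, was at 130 against 56.3 CPM and 232 against 106 CPM. Nrp1, the semaphorin receptor neuropilin 1, was at 120 against 57.4 CPM and 138 against 58.3 CPM. Ccr6 and Cd4 belong to this list and were at 0 by the gate.

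The Ncr1-type list ran the opposite way. None of its measured genes was 1.5-fold higher, and 9 of 10 were lower in the IL-23 library and 5 of 9 in the unstimulated library, with medians of -1.26 and -0.90 beside -0.03 for all genes, of which 7.8% and 7.04% were lower. Tbx21, the type 1 transcription factor T-bet, was at 5.10 CPM in IL-23 members against 16.4 CPM and 4.37 CPM in unstimulated members against 20.4 CPM. Xcl1, a chemokine for cross-presenting dendritic cells, was at 10.0 against 46.1 CPM and 6.39 against 39.7 CPM. Klrk1, the activating receptor NKG2D, was at 171 against 382 CPM and 202 against 378 CPM. In the list of natural killer and ILC1 genes, 5 of 6 measured genes were lower in the IL-23 library and 4 of 5 in the unstimulated library, among them Fasl, the death ligand, at 2.47 against 24.5 CPM and 2.65 against 34.0 CPM.

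In the prostaglandin E2 pathway beyond Ptges, the measured synthesis genes stayed under 1.5-fold between members and zero cells, while both measured receptors passed it. Among 11 synthesis genes, 3 were measured and none was past 1.5-fold in either library. Ptgs2, the inducible cyclooxygenase that feeds Ptges, was at 110 CPM in IL-23 members against 133 CPM in zero cells, and at 188 CPM in unstimulated members against 177 CPM. Ptgs1, the constitutive cyclooxygenase, had no UMI in members of either library. Ptges3, the cytosolic synthase and HSP90 co-chaperone, was at 312 against 298 CPM and 268 against 248 CPM. Of the receptors for prostaglandin E2, Ptger2 was higher in members, at 75.3 against 46.8 CPM in the IL-23 library and 64.6 against 40.3 CPM in the unstimulated library. Ptger4 was lower, at 13.6 against 21.2 CPM and 7.64 against 16.8 CPM. Ltb4r1, the receptor for leukotriene B4, was lower too, at 20.6 against 58.8 CPM and 10.4 against 29.7 CPM.

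Relatives of Cryaa were mostly too low to be measured. Of 17 crystallins and small heat shock genes, only Cryzl1 was measured, at log2 ratios of 0.44 and -0.15, and Cryab, the partner of alpha A-crystallin in the lens, was at 0 CPM in IL-23 and 0.156 CPM in unstimulated members. All 15 large chaperones were measured, with medians of 0.15 and 0.02. Hspa1b was lower in both libraries, at 10.5 against 17.4 CPM and 12.6 against 22.5 CPM, and its near-identical copy Hspa1a was lower in the IL-23 library alone, so that the split of reads between the pair is uncertain. Of 24 actin regulators and palladin partners, 16 were measured in the IL-23 library and 19 in the unstimulated library. In that order 2 and 1 were higher and 2 and 4 lower. Of all measured genes, 4.68% and 4.85% were higher and 7.8% and 7.04% lower. Palld was the 1 gene of the list higher in both libraries, Actb was higher in the IL-23 library alone, and Vasp and Flna were lower in both. Tagln and Myl9, smooth muscle genes of that list, were lower in the unstimulated library, at 0 in members against 19.3 and 12.9 CPM in zero cells. The stromal marker Acta2, smooth muscle actin, was at 0 in members of both libraries against 7.26 CPM in IL-23 and 23.2 CPM in unstimulated zero cells. Of the unstimulated zero cells' UMIs of these 3 genes, 134 of 196, 98 of 131 and 207 of 236 lay in 1 cell for each gene. Cd81 and Tspan31 were the tetraspanins higher in both, and Ifitm2 and Ifitm3, which can associate with CD81, were lower, Ifitm3 at 0.309 CPM in IL-23 members against 27.2 CPM.

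Members also differed in cytokines and in the factors and receptors that place lymphocytes. Il17f, which encodes IL-17F, was at 979 CPM (955 to 1004) in IL-23 members against 523 CPM (509 to 538) in zero cells, and at 138 CPM (129 to 147) in unstimulated members against 45.8 CPM (41.7 to 50.2). Its log2 ratios of 0.90 and 1.59 became 0.53 and 0.46, under 1.5-fold, without cells that carried a T cell receptor constant transcript. That alternative left out most cells of the gate. Of the effector cytokines, 7 of 15 measured were higher and 3 lower in the IL-23 library, and 8 of 14 were higher and 2 lower in the unstimulated library, with medians of 0.56 and 0.83 beside -0.03 for all genes. Of all measured genes, 4.68% and 4.85% were higher and 7.8% and 7.04% lower. Tox and Tox2, factors of innate lymphoid development, were higher in both libraries, Tox2 at 64.6 against 21.9 CPM and 48.2 against 12.97 CPM. Lower in both were Tbx21, Id3, Ikzf2, Ikzf3 and Bcl11b, out of 23 lineage factors measured. The egress receptor S1pr1 was at 27.7 against 7.26 CPM and 12.01 against 4.62 CPM, and the gut homing receptor Ccr9 at 2.78 against 14.4 CPM and 5.46 against 21.7 CPM. Of the cytokine receptors, Il7r, Il18r1, Il18rap and the decoy Il1r2 were lower in both libraries and Ifngr2 was higher in both. Ramp1, a subunit of the receptor for the neuropeptide CGRP, was at 20.6 against 3.74 CPM and 25.6 against 6.09 CPM.

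Il22 hardly separated the members in the IL-23 library but set them apart in the unstimulated one. It stood at 28202 CPM in IL-23 members and 25869 CPM in IL-23 zero cells, whereas unstimulated members held 7723 CPM (7655 to 7791) and unstimulated zero cells 3337 CPM (3302 to 3373). In the IL-23 library 0 of 1107 members lacked an Il22 UMI, with an exact upper bound of 0.333%, against 5 of 1640 zero cells. In the unstimulated library 89 of 1338 members lacked one, 6.65% (5.38 to 8.12%), against 669 of 2123 zero cells, 31.5% (29.5 to 33.5%). The median cell held 115 Il22 UMIs among IL-23 members against 107 among zero cells, and 21 among unstimulated members against 3. An Il17a or Il17f UMI was found in 68.8% of IL-23 members against 43.5% of zero cells and in 27.7% of unstimulated members against 10.3%.

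Fewer genes were past 1.5-fold between members and Ccr6 cells than between members and zero cells. The rule split members from zero cells by the pair, while Ccr6 cells were not split by it. At least 2 UMIs of the pair were held by 69.6% of IL-23 and 65.8% of unstimulated Ccr6 cells. The 2 counts are therefore not an even measure of nearness, and the Ccr6 comparison was chosen after seeing the data. Other groups outside the gate were not compared over all genes, so the nearest group is not named. Against Ccr6 cells 94 of 6871 genes were higher (1.37%) and 256 lower (3.73%) in the IL-23 library, and 114 of 7083 were higher (1.61%) and 317 lower (4.48%) in the unstimulated library. Palld was lower in members than in Ccr6 cells, at 181 against 349 CPM in the IL-23 library and 142 against 242 CPM in the unstimulated library, and Cd81 at 96.9 against 155 CPM and 91.1 against 147 CPM. Areg, by contrast, was higher in members, at 15.1 against 4.11 CPM and 20.0 against 2.76 CPM. In Ret cells of the IL-23 and unstimulated libraries, Palld was at 175 and 123 CPM and Cd81 at 62.5 and 63.0 CPM. Levels in zero cells lay beside those of Ncr1 cells for Nkg7, at 74.2 CPM in IL-23 zero cells and 76.1 CPM in IL-23 Ncr1 cells, and at 65.1 and 66.5 CPM in the unstimulated library. That Ncr1 or Ccr6 was not detected in a cell of the gate does not show that the cell lacked it.

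With IL-23, members held more Batf, Ctla4, Il17a, Il17f and Gadd45g. Of 6886 genes measured in members, 251 were at least 1.5-fold higher (3.65%) and 390 lower (5.66%) in the IL-23 library, around a median log2 ratio of -0.10. Trimmed-mean scaling moved that median by 0.11 and gave 354 higher and 220 lower, so the split between higher and lower rests on the scaling. In zero cells 357 of 6994 genes were higher (5.1%) and 492 lower (7.03%), around -0.11.

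Batf, an AP-1 factor of IL-17-producing lymphocytes, had the highest ratio, at 500 CPM (483 to 518) in IL-23 members against 32.4 CPM (28.2 to 37.2) in unstimulated members, 15.4-fold higher (13.4 to 17.8). Ctla4, an inhibitory receptor, was at 96.6 CPM (89.2 to 105) against 7.33 CPM (5.39 to 9.75), 13.2-fold higher (9.79 to 18.1). Il17a was at 446 against 45.5 CPM, 9.80-fold higher, and Il17f at 979 against 138 CPM, 7.11-fold higher. For all 4, the IL-23 members lay far above the unstimulated members in level. Ctla4 was nonetheless found in fewer members than zero cells. A Ctla4 UMI was in 12.5% of IL-23 members against 37.6% of IL-23 zero cells, and in 2.17% against 8.95% in the unstimulated library. Gadd45g, a stress sensor that activates kinase signalling, was at 1023 CPM in IL-23 members against 122 CPM in unstimulated members. Prdm1, which encodes the repressor Blimp-1, was at 64.9 against 10.1 CPM, Bcl3, a nuclear NF-kB regulator, at 92.1 against 18.2 CPM, and Sbno2, a transcriptional regulator downstream of STAT3, at 158 against 26.7 CPM. Il1r1, the IL-1 receptor, was at 345 against 74.8 CPM. The other genes named for higher levels were Pqlc1, Elovl6 (an elongase of fatty acids), Apex1 (a DNA repair endonuclease), Stom (a membrane scaffold), Gcnt2 (a glycosyltransferase) and Swap70 (an actin-binding signalling protein), with log2 ratios of 1.93 to 3.15.

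The levels of the 2 genes of the rule are given as a description. Cryaa was at 537 CPM in IL-23 members against 630 CPM in unstimulated members (log2 ratio -0.23) and Ptges at 106 against 103 CPM (0.04). Palld was at 181 against 142 CPM (0.35) and Cd81 at 96.9 against 91.1 CPM (0.09), both under 1.5-fold. Cebpd was the 1 marker past it, at 237 CPM (225 to 249) against 64.9 CPM (58.8 to 71.4), 3.66-fold higher (3.28 to 4.08), and zero cells showed the same direction at 177 against 38.9 CPM.

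Lower in IL-23 members were Coq8a, a kinase-like protein of coenzyme Q synthesis, at 19.3 against 57.4 CPM, and Clec2d, a ligand of NK receptors, at 23.7 against 69.5 CPM. Cd83 was at 155 CPM in IL-23 members against 320 CPM in unstimulated members, although it was higher in members than in zero cells in each library. Pik3r1, a regulatory subunit of PI3 kinase, was at 152 against 320 CPM. Stap1, Tmem156, Tsc22d4, Plac8, the mitochondrial gene mt-Atp8 and Bcl2a1d made up the rest of those named, with log2 ratios of -1.31 to -0.999, and Bcl2a1d has near-identical copies among which reads may be split. Plac8 came to -0.40, under 1.5-fold, with members chosen by 2 or more Ptges UMIs.

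Of 21 measured STAT3 targets, 9 were higher and 1 lower in IL-23 members, with a median of 0.53 beside -0.10 for all genes. Socs3, the feedback inhibitor of STAT3, was at 815 against 341 CPM and the kinase Pim2 at 206 against 81.9 CPM. Ahr, a receptor for dietary ligands that ILC3s need, was at 125 against 45.2 CPM. Effector cytokines split, with Il22, Il17a, Il17f and Tnfsf14 higher and Csf2, Tnf, Ltb, Tnfsf11 and Tnfsf8 lower among 14 measured. Ltb, a subunit of lymphotoxin, was at 53.2 against 91.2 CPM and Tnfsf11 at 130 against 232 CPM. In the prostaglandin lists, Ptgs2 was lower at 110 against 188 CPM and Ptger4 higher at 13.6 against 7.64 CPM, while Cysltr1, a leukotriene receptor, was higher at 205 against 99.3 CPM.

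The IL-23 ratio of members and of zero cells can be set side by side, without a test of their difference, since each rests on the same 2 libraries. None of 6654 genes measured in both was 1.5-fold higher in one kind of cell and 1.5-fold lower in the other. Socs3 had the most negative difference, with log2 ratios of 1.26 in members and 2.41 in zero cells, and its unstimulated level was 341 CPM in members against 131 CPM in zero cells. Il22 followed at 1.87 in members against 2.95 in zero cells, then Ikzf4, an Ikaros family factor, at 1.63 against 2.63, Plscr1 at 1.25 against 2.08 and Il17a at 3.29 against 4.10. For Socs3, Il22 and Il17a, members were the higher group in both libraries, with log2 ratios over zero cells of 0.23, 0.12 and 1.16 in the IL-23 library against 1.38, 1.21 and 1.97 in the unstimulated library. At the other end stood Cxcl10, an interferon-induced chemokine, with log2 ratios of -0.40 in members and -1.60 in zero cells, then Sbno2 at 2.57 against 1.96 and Bcl2, the survival factor, at -0.89 against -1.46. Rxylt1 and Gls2, the liver-type glutaminase, completed these, both at -0.23 in members against -0.80 and -0.76 in zero cells. The members' ratio of Bcl2 came to -0.24 when members were chosen by 2 or more Ptges UMIs.

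**Figure D5:**
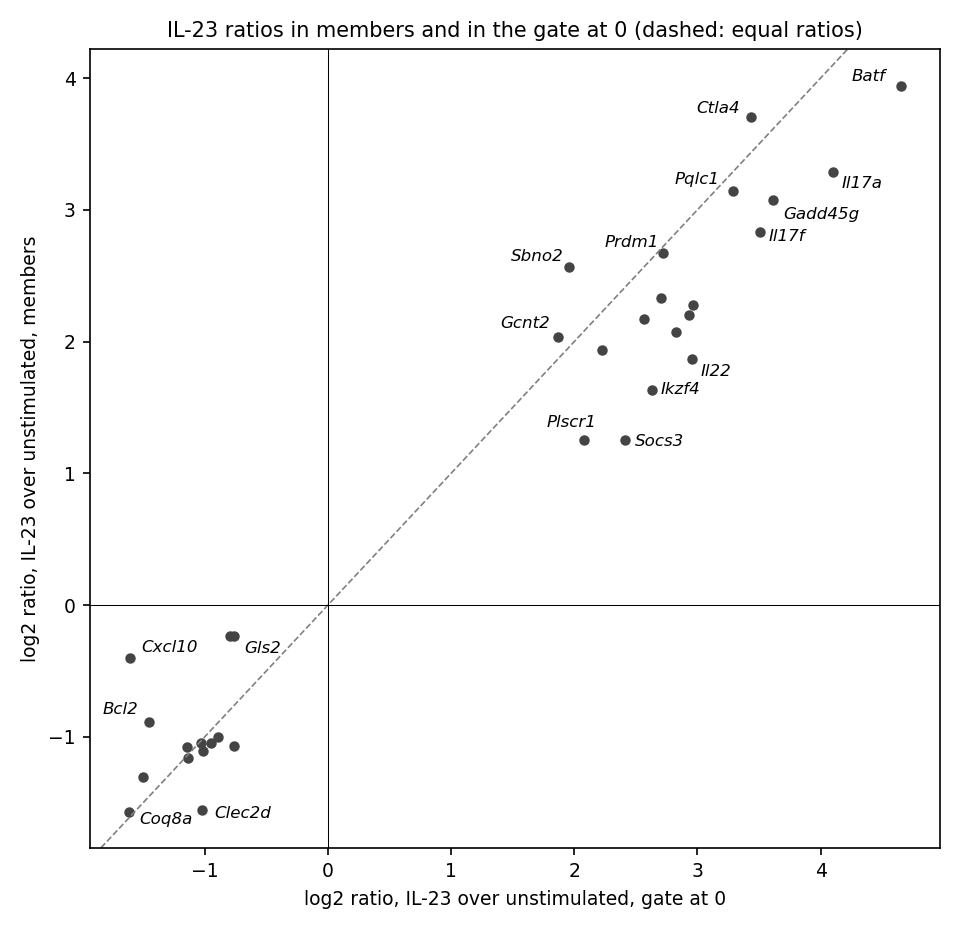
Log2 ratio of IL-23 over unstimulated in members (vertical axis) against the same ratio in zero cells (horizontal axis, labelled gate at 0) for the genes named in the IL-23 comparisons; each point is 1 gene and the dashed line marks equal ratios. Batf is the highest in both, Socs3, Il22 and Ikzf4 lie below the line, and Cxcl10, Bcl2 and Sbno2 lie above it.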

How the data were processed

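Single-cell RNA was measured in 2 droplet libraries. The authors deposited whole-number UMI counts for 32285 genes per barcode with no normalization; the build was mm10 and the tool Cell Ranger 3.1.0 per the submitters' processing notes, or cellranger 6.0.0 per the file headers. Filters of 500 genes or more and a mitochondrial UMI share of 10% or less kept 9251 of 10440 for IL-23 and 10790 of 11096 unstimulated, with medians of 6087 and 4928 UMIs. No doublet caller was run. An alternative leaves out cells above the 95th percentile of UMIs.

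UMIs were summed per library and cell group and scaled to CPM with exact Poisson 95% intervals. Log2 ratios add 0.5 UMI to each sum. Shares have Clopper-Pearson 95% intervals (scipy 1.17.1, Python 3.11.15, numpy 2.4.6, pandas 2.3.3). Cells were thinned to 2000 UMIs with seed 11. With 1 library per group no test was possible, and cells are not replicates. The sums were tested on simulated data.

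Named were the proposed markers. Also named were the 15 highest and 10 lowest ratios of members over zero cells in the unstimulated library that were 1.5-fold the same way with IL-23, the 15 highest and 10 lowest of IL-23 over unstimulated members, the 5 largest differences each way between the IL-23 ratios of members and zero cells, and genes of 21 lists, with at least 50 CPM and 50 UMIs outside the lists. Members and lists, with 11 marker lists, were chosen with earlier results of these data known. Positions are from a GENCODE annotation of GRCm38. Some items are not reported here.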

Additional observations from a re-analysis of the deposited data

How the results depend on the processing

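No paired analysis was possible because each group is 1 library. Each gene ratio was counted once per comparison and alternative. Of these values, 1248 moved by less than their counting interval, 282 moved further and none turned. A turn was counted only where the main ratio or median was at least 1.5-fold, so smaller ones may have changed sign. Of the list medians 820 were the same, 89 moved and 1 turned: the chemokines of members over zero cells in the IL-23 library, at 0.24 with a minimum of 50 CPM and 50 UMIs, which keeps fewer genes.

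The members' share of the gate (IL-23, then unstimulated) was 52.4% and 51.2% at 1 or more UMIs, 20.6% and 18.8% at 3 or more, 4.76% and 3.93% by 2 or more Ptges UMIs, 28.0% and 27.3% by 2 or more Cryaa UMIs, 34.0% and 32.4% with at least 1000 genes, 39.3% and 39.8% without cells carrying a T cell receptor constant transcript, and 13.1% and 14.6% at 2000 UMIs. With at least 200 genes the IL-23 share was 26.5%.

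Counts of genes past 1.5-fold, higher then lower, moved most with the minimum. Without one they were 2613 and 3595 for members over zero cells with IL-23, 3036 and 3516 for the same unstimulated, and 2397 and 3079 for IL-23 over unstimulated members. At 50 CPM and 50 UMIs they were 94 and 181, 93 and 170, and 112 and 106. By 2 or more Ptges UMIs, which leaves few cells, they were 698 and 955, 823 and 1046, and 473 and 881. At 1 or more UMIs, members over zero cells gave 281 lower with IL-23, and 225 higher and 308 lower unstimulated. Leaving out cells carrying a T cell receptor constant transcript removed most cells of the gate. Without them, 975 were lower in members with IL-23 and 655 lower in IL-23 over unstimulated members. The last count was 220 under trimmed-mean scaling and 641 standardised to depth. The cause was not tested. Leaving out immunoglobulin cells, chosen after seeing the data as was the comparison with Ccr6 cells, kept every one of these 6 counts within 1.5 times.

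Depth limits shares of cells with a UMI: at this depth 34.1% of IL-23 and 28.0% of unstimulated members held a Ptges UMI.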

Other observations

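Dll1, a Notch ligand, was chosen after its values were seen. It stood at 64.9 CPM (58.9 to 71.4) in IL-23 members and 12.1 CPM (9.94 to 14.5) in IL-23 zero cells, and at 25.1 CPM (21.4 to 29.3) in unstimulated members and 4.23 CPM (3.06 to 5.69) in unstimulated zero cells. Members were thus the higher group in each library, and the IL-23 library was higher in each kind of cell. Outside the gate, Dll1 was at 93.0 and 33.6 CPM in Ccr6 cells of the IL-23 and unstimulated libraries, at 10.7 and 3.92 CPM in Ncr1 cells and at 12.7 and 3.504 CPM in T cells. A Dll1 UMI was found in 19.2% of IL-23 members against 4.57% of zero cells and in 9.49% of unstimulated members against 1.70%.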
